A study of Homo sapiens with 2 samples.

Results

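The glutathione transferases and peroxidases examined here are 10 genes: MGST1, MGST2, MGST3, GSTP1, GSTM1, GSTM3, GSTO1, GPX1, GPX4 and GPX8. They were chosen from measured values of these libraries, in particular the levels of MGST1 and GSTM1 per line, so their levels in the lines are given as a description. Of the 33538 genes counted, 9 of the 10 had a row, and the level of GPX1 was not analysed here. The samples were CHLA9 and TC71, established lines of Ewing sarcoma, a bone and soft tissue tumour driven by a fusion of EWSR1 with an ETS factor. Each line gave 1 droplet library of 3′ ends, in which unique molecular identifiers (UMIs) count captured transcripts. CHLA9 was grown in IMDM with 20% serum and 1% of an insulin, transferrin and selenite supplement, and TC71 in RPMI with 10% serum; CHLA9 was also read on a further sequencer, so line, medium and sequencing cannot be told apart. A barcode was taken as a cell when it held 5000 or more UMIs from 2000 or more genes, with no more than 15% of its UMIs mitochondrial. In CHLA9, 4524 of 5077 barcodes were kept, with 174975302 UMIs and a median of 34656 per cell. In TC71, 1729 of 8468 were kept, with 58355173 UMIs and a median of 33370. The libraries shared 16 barcodes, of which 13 were kept in CHLA9 and 3 in TC71.

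Glutathione transferases join the tripeptide glutathione to electrophiles, and glutathione peroxidases use it to reduce hydrogen peroxide and lipid hydroperoxides. The MGST genes encode small membrane enzymes of the MAPEG family, GSTP1, the GSTM genes and GSTO1 encode soluble enzymes of the pi, mu and omega classes, and GPX4 encodes the selenoprotein that reduces phospholipid hydroperoxides and holds back ferroptosis. Many genes of this system are targets of the transcription factor NRF2, encoded by NFE2L2.

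All 10 Ewing sarcoma markers reached 10 CPM (UMIs per 1000000 UMIs of the kept cells) in at least 1 line, with a summed level of 4402 CPM in CHLA9 and 2589 CPM in TC71. Of these markers 2 were at least 2-fold higher in CHLA9, against 16.3% of all genes with that level, and 3 in TC71, against 8.8%. CCND1 was the most abundant of them in both, at 2511 CPM in CHLA9 and 1451 CPM in TC71. NR0B1, a target of the fusion, was at 48.1 CPM in CHLA9 and 122 CPM in TC71. Immune markers summed to 0.446 CPM in CHLA9 and 0.223 CPM in TC71, with CD14 the most abundant and CD3E without a UMI. Endothelial markers summed to 0.223 CPM and 0.0685 CPM, led by CDH5 and with no VWF UMI, and hepatocyte markers, which would come with MGST1 and alpha class transferases, to 0.640 CPM and 1.70 CPM, led by APOA1. Fibroblast markers were higher in CHLA9, at 300.5 CPM against 25.0 CPM. All 4 markers that reached 10 CPM were at least 2-fold higher, against 16.3% of all genes. Once centred on the median gene, 3 of them were, against 1152 of all 9258 genes tested. Among them was COL1A2, at 203 CPM in CHLA9 and 0.0343 CPM in TC71. Epithelial markers were higher in TC71, at 306 CPM against 125 CPM, nearly all of it KRT18, while EPCAM was at 0.0457 CPM in CHLA9 and 1.25 CPM in TC71. The part of these markers in the results below was not tested.

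Of the 10 genes, 9 had promoter windows in RefSeq (GRCh38.p14), GPX1 among them, with 13 windows in all. Each window ran from 250 bases before a transcript start to 50 after it. MGST2 had no entry. The windows shown belong to the gene with the largest difference between the lines (MGST1) and to its relative with similar levels in both (MGST3). The others belong to the most abundant measured transferase (GSTP1) and to the peroxidases with opposite phase patterns (GPX4 and GPX8). Capitals mark TGACNNNGC, the core letters of the antioxidant response element read by NRF2, and GGGCGG, the GC box read by SP1, each on either strand; these motifs and GGAAGGAA, the repeat bound by EWSR1-FLI1, were searched on both strands. The MGST1 window is at chr12:16347395-16347644 on the plus strand, inside the annotated gene and outside its exons. The MGST3 window is at chr1:165630984-165631233 on the plus strand and ends with 21 exon bases. The GSTP1 window is at chr11:67583562-67583771 on the plus strand, with the last 40 bases before its RefSeq start not shown and 30 exon bases at its end; its last capitals begin a GC box that runs on into the bases not shown. The GPX4 window is at chr19:1103744-1103993 on the plus strand, with 12 exon bases. The GPX8 window is at chr5:55159921-55160170 on the plus strand, with 4 exon bases.
MGST1: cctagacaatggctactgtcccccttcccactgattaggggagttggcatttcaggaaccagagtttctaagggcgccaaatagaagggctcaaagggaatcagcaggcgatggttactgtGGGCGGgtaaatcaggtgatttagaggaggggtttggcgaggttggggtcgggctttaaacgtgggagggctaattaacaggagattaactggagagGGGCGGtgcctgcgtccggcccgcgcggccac
MGST3: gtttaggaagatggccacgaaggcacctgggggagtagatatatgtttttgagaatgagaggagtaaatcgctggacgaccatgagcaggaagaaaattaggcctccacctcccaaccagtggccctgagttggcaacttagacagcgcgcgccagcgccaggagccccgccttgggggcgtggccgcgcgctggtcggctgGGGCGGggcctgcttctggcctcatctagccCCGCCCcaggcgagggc
GSTP1: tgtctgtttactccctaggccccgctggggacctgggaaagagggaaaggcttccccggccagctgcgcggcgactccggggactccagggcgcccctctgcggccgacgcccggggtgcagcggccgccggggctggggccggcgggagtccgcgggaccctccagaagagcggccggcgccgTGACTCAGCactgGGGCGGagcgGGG
GPX4: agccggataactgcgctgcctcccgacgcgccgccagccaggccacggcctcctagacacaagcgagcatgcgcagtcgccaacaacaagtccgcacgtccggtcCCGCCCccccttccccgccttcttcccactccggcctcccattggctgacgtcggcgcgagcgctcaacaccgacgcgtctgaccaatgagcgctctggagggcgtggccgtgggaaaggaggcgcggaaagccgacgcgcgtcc
GPX8: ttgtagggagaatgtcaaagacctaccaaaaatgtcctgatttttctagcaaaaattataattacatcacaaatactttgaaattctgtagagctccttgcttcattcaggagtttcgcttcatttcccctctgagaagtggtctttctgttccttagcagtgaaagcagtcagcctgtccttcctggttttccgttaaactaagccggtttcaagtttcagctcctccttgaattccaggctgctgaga

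TGACNNNGC was found in windows of 4 genes, GSTP1, GSTM1, GSTO1 and MGST1, and in 13.3% of all 35116 windows. In GSTP1 the match begins 66 bases before the start. In GSTO1, 2 matches begin 226 and 161 bases before it, and in GSTM1 the match begins 165 bases before it. The MGST1 match lies in a window of another start, not shown, and not in the window above. GGGCGG was found in 10 of the 13 windows and in 45.0% of all windows, and GGAAGGAA in none of the 13 and in 3.67% of all. CG dinucleotides were few in the windows of GPX8, with 4, and GSTM3, with 1, and the MGST1 window with the TGACNNNGC match also had 4. GSTP1 had 36 and the MGST1 window shown had 18, with a median of 14 over all windows. These matches are letters in a window and do not show binding.

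Of the microsomal transferases, MGST1 and MGST2 differed between the lines and MGST3 was within 2-fold. MGST1, a trimeric enzyme of the endoplasmic reticulum and outer mitochondrial membrane, had a level of 0.126 CPM (95% Poisson interval 0.0788 to 0.190) in CHLA9. In TC71 it had 263 CPM (258 to 267). The log2 of CHLA9 over TC71 was -11.03 (-11.70 to -10.43), a level 2088 times as high in TC71 (1379 to 3333). The 22 MGST1 UMIs of CHLA9 lay in 22 separate cells, and where they came from was not tested. None of these cells had a barcode shared with TC71, but only 13 of the 4524 kept CHLA9 barcodes did, too few to tell. In TC71, 15319 UMIs were counted. These intervals, and all others given, cover counting error only, since there was no replicate library, and nothing was tested between the lines.

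MGST2, which can also make leukotriene C4, showed the same order of the lines at a lower level. It was at 0.0514 CPM in CHLA9 (9 UMIs in 8 cells) and 16.9 CPM in TC71 (985 UMIs), with a log2 of -8.36 (-9.49 to -7.43). MGST3, the related enzyme with peroxidase activity, did not follow: CHLA9 had 297 CPM (294 to 299.5) of it and TC71 had 249.5 CPM (245 to 254), with a log2 of 0.25 (0.22 to 0.28). Of the 3 further MAPEG genes, LTC4S was at 1.15 CPM in CHLA9 and 0.0171 CPM (1 UMI) in TC71, with a log2 of 6.07 (3.58 to 11.38). PTGES was at 0.109 CPM and 1.17 CPM, while ALOX5AP had 15 UMIs in CHLA9 and none in TC71. All 3 were under 10 CPM in both lines.

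A gene was called between the lines where its CPM differed at least 2-fold and reached 10 in 1 of them. Of the 8 measured members that reached 10 CPM in 1 line, MGST1 and MGST2 were called, both higher in TC71. Of the wider lists of these families, 7 transferases were tested, with 1 called higher in CHLA9 and 0 in TC71, and 3 peroxidases, with 1 and 0. Over all 9258 genes with that level, 8.8% (815) were called higher in TC71 and 16.3% (1510) higher in CHLA9. Because levels in these lines chose the members, nothing is read from this count. The median log2 over the 7516 genes with at least 10 CPM in both lines was 0.16, so that after centring on it 1152 genes were higher in CHLA9 and 1026 in TC71, 52.9% against 64.9% higher in CHLA9 before. Centred values were -11.19 for MGST1, -8.52 for MGST2 and 0.09 for MGST3.

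**Figure D1:**
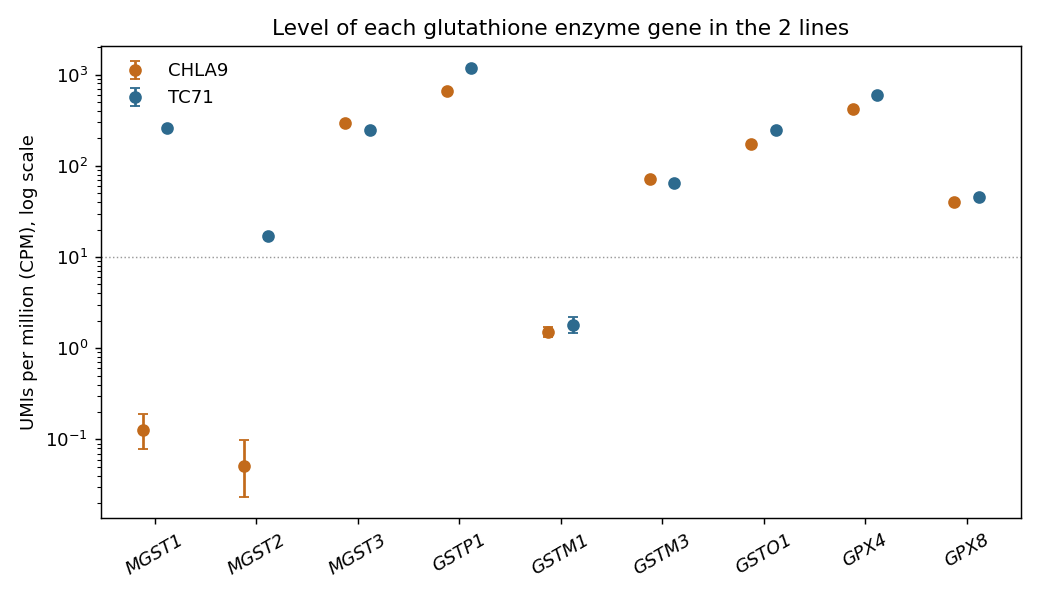
Level of each measured gene in CHLA9 (orange) and TC71 (blue), in CPM on a log axis, with 95% Poisson intervals; the dotted line is at 10 CPM. MGST1 and MGST2 are at 0.126 and 0.0514 CPM in CHLA9 and at 263 and 16.9 CPM in TC71, while the lines are within 2-fold of each other for the 7 further genes.

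GSTP1, the pi class enzyme, was the most abundant of the 9 measured members in both lines. Its CHLA9 level was 654 CPM (650.3 to 658) and its TC71 level 1191 CPM (1182 to 1199), a log2 of -0.86 (-0.88 to -0.85). Centred on the median gene the value was -1.02, which is past 2-fold, so that GSTP1 became a called member under that scaling alone among those tried. GSTO1, the omega class enzyme that also reduces dehydroascorbate, had 173 CPM (172 to 175) in CHLA9 against 248 CPM (244 to 252) in TC71, a log2 of -0.51 (-0.54 to -0.49). Both soluble enzymes were higher in TC71 under every scaling tried.

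GSTM3, the mu class gene with the highest level, was similar in the lines, at 71.9 CPM (70.7 to 73.2) in CHLA9 and 64.3 CPM (62.3 to 66.4) in TC71. Its log2 of 0.16 (0.11 to 0.21) was 0.00 once centred. GSTM1, a gene missing from the genome of many people, had 263 UMIs in CHLA9 and 105 in TC71, or 1.503 CPM (1.33 to 1.70) and 1.80 CPM (1.47 to 2.18). The interval of the log2 of -0.26 (-0.59 to 0.08) held 0, and the value was -0.42 once centred, so that whether the lines differ rests on the scaling. GSTM1 made up 1.63% of mu class UMIs in CHLA9 (95% Clopper-Pearson interval 1.44 to 1.84) and 2.04% in TC71 (1.67 to 2.47). GSTM4, its neighbour 22.3 kb away, made up 17.9% and 21.7%. GSTM1, GSTM2, GSTM4 and GSTM5 are near-identical in long stretches, so that a few UMIs of GSTM1 could be those of a relative; the values are uncertain, and whether either line carries the gene cannot be told from them.

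Beyond the members, the alpha class genes GSTA1, GSTA2, GSTA3 and GSTA5 had no UMI in either line, and a count of 0, with the limit taken as 3 UMIs, allows up to 0.0171 CPM in CHLA9 and 0.0514 CPM in TC71. GSTA4, which acts on the lipid peroxide product 4-hydroxynonenal, was at 40.9 CPM in CHLA9 and 61.8 CPM in TC71. GSTT2B, of the theta class, had 459 UMIs in CHLA9 and none in TC71, a level at least 51.0-fold higher in CHLA9 against the limit of 3 UMIs, although at 2.62 CPM it was below the minimum for a call. GSTT1 and GSTT2 were not analysed here. GSTK1, the mitochondrial and peroxisomal kappa class enzyme, was the 1 transferase called higher in CHLA9, at 59.8 CPM against 28.5 CPM, a log2 of 1.07 (0.99 to 1.14) that fell under 2-fold to 0.91 when centred.

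GPX4 had 415 CPM (412 to 418) in CHLA9 against 601 CPM (595 to 608) in TC71, with a log2 of -0.53 (-0.55 to -0.52). GPX8, a peroxidase anchored in the membrane of the endoplasmic reticulum, was at 40.5 CPM (39.6 to 41.5) in CHLA9 and 45.7 CPM (43.97 to 47.5) in TC71, with a log2 of -0.17 (-0.24 to -0.11). Neither reached 2-fold, and both were higher in TC71 under every scaling. GPX7, the luminal relative of GPX8, went the other way, at 109.7 CPM in CHLA9 and 51.0 CPM in TC71, a log2 of 1.10 (1.05 to 1.16), or 0.94 centred. GPX2 and GPX3 had 15 and 26 UMIs in CHLA9 and 2 each in TC71, and GPX5 and GPX6 had none in either.

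The family sums follow from the levels above, by which the members were chosen, and are given as values. The summed UMIs of MGST1, MGST2 and MGST3 came to 297 CPM (295 to 299.7) in CHLA9 and to 529 CPM (523 to 535) in TC71. MGST3 gave 99.9% of that sum in CHLA9, whereas MGST1 gave 49.6% of it in TC71. The 15 cytosolic transferases summed to 977 CPM in CHLA9 and 1603 CPM in TC71, with GSTP1 giving 67.0% and 74.3%. The 7 peroxidases, GPX1 not among them, summed to 566 CPM and 698 CPM, with GPX4 giving 73.4% and 86.1%. These sums were higher in TC71, by 1.78, 1.64 and 1.23 times, although some genes within them, such as MGST3, GSTM3 and GPX7, were higher in CHLA9 as measured. Within the cytosolic sum, the 5 mu class genes came to 92.2 CPM in CHLA9 and 88.1 CPM in TC71, a log2 of 0.07 that is smaller than the median shift. A UMI counts 1 captured 3′ end, so these sums of CPM were not divided by transcript length.

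The wider redox lists overlap, since NRF2 targets are also genes of glutathione synthesis and selenoproteins. Of 26 genes in the list of NRF2 and its targets, 20 reached 10 CPM in 1 line; 8 were called higher in TC71, against 8.8% of all genes, and 2 higher in CHLA9, against 16.3%, and their median log2 was -0.65, against 0.21 over all genes tested. NFE2L2 itself was at 49.2 CPM in CHLA9 and 114.5 CPM in TC71, a log2 of -1.22. NQO1, a quinone reductase and common marker of NRF2 activity, was at 0.206 CPM and 44.6 CPM, a log2 of -7.76 (-8.28 to -7.29), so that it was close to absent from CHLA9 together with MGST1 and MGST2. ME1, which makes NADPH, was at 8.06 CPM and 50.6 CPM, a log2 of -2.65. FTL, the ferritin light chain, was at 1542 CPM and 4810 CPM, a log2 of -1.64. The further calls toward TC71 were GCLC, SLC7A11, TXNRD1 and SLC48A1, with log2 values between -1.14 and -1.06. HMOX1, the haem oxygenase, went against them, at 14.1 CPM in CHLA9 and 3.75 CPM in TC71, a log2 of 1.91, as did EPHX1, at 1.15. After centring, 9 genes of the list were higher in TC71 and 1 in CHLA9, against 1026 and 1152 of all 9258 genes tested.

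In the list of glutathione synthesis and recycling, 18 of 23 genes were tested, with 4 called higher in TC71, against 8.8% of all genes, 2 higher in CHLA9, against 16.3%, and a median log2 of -0.49. GCLC, the catalytic subunit of the rate-limiting ligase, was at 10.1 CPM in CHLA9 and 22.3 CPM in TC71. The subunits of the cystine transporter went in opposite directions: SLC7A11 was at 9.97 CPM and 21.7 CPM, and SLC3A2, the heavy chain that also serves amino acid carriers, at 578 CPM and 80.2 CPM, a log2 of 2.85 (2.81 to 2.89). GLRX, a glutaredoxin, had a log2 of -1.66 and CHAC2, which degrades glutathione, -1.51, while HAGH, of the glyoxalase pathway, had 1.28. Of 11 thioredoxin and peroxiredoxin genes tested, 4 were called higher in TC71, against 8.8% of all genes, and 0 higher in CHLA9, against 16.3%. They were PRDX4 at -1.11, TXNRD1 at -1.06, PRDX6 at -1.05 and TXN at -1.03. Their list had a median log2 of 0.08, and 7 genes lay within 2-fold. In the superoxide and catalase list 4 of 5 genes were tested and none was called, with a median of -0.48; SOD2, at 31.3 CPM in CHLA9 and 62.4 CPM in TC71, lay just inside 2-fold and passed it once centred.

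Selenoproteins, among them GPX4, had 2 of 15 tested genes called in each direction, against 16.3% of all genes toward CHLA9 and 8.8% toward TC71. Of these, SELENOW, at 192 CPM in CHLA9 and 56.2 CPM in TC71 with a log2 of 1.77, and SELENON, at 1.05 (0.89 centred, under 2-fold), were called higher in CHLA9, and SELENOM, at -1.89, and TXNRD1 were called higher in TC71, around a median of -0.16. Of 10 genes of the selenocysteine machinery, all tested, PSTK alone was called, higher in TC71, against 8.8% of all genes. PSTK was at 8.58 CPM in CHLA9 and 37.2 CPM in TC71, a log2 of -2.12. The median of this list was 0.41. CHLA9 was the line grown with added selenite, and the part of the medium in these values was not tested. In the list of iron and lipid peroxide genes, 13 of 20 were tested, with a median of -0.42. Of these, 3 were called in each direction, against 16.3% of all genes toward CHLA9 and 8.8% toward TC71. Once centred, 5 were higher in TC71 and 3 in CHLA9, against 1026 and 1152 of all 9258 genes tested. ACSL4, which loads polyunsaturated fatty acids into phospholipids, was at 4.57 CPM and 24.3 CPM, a log2 of -2.41. AIFM2, which holds back lipid peroxidation without glutathione, was at 15.5 CPM and 2.91 CPM, a log2 of 2.41, and STEAP3, an iron reductase, was at 29.5 CPM and 9.75 CPM.

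**Figure D2:**
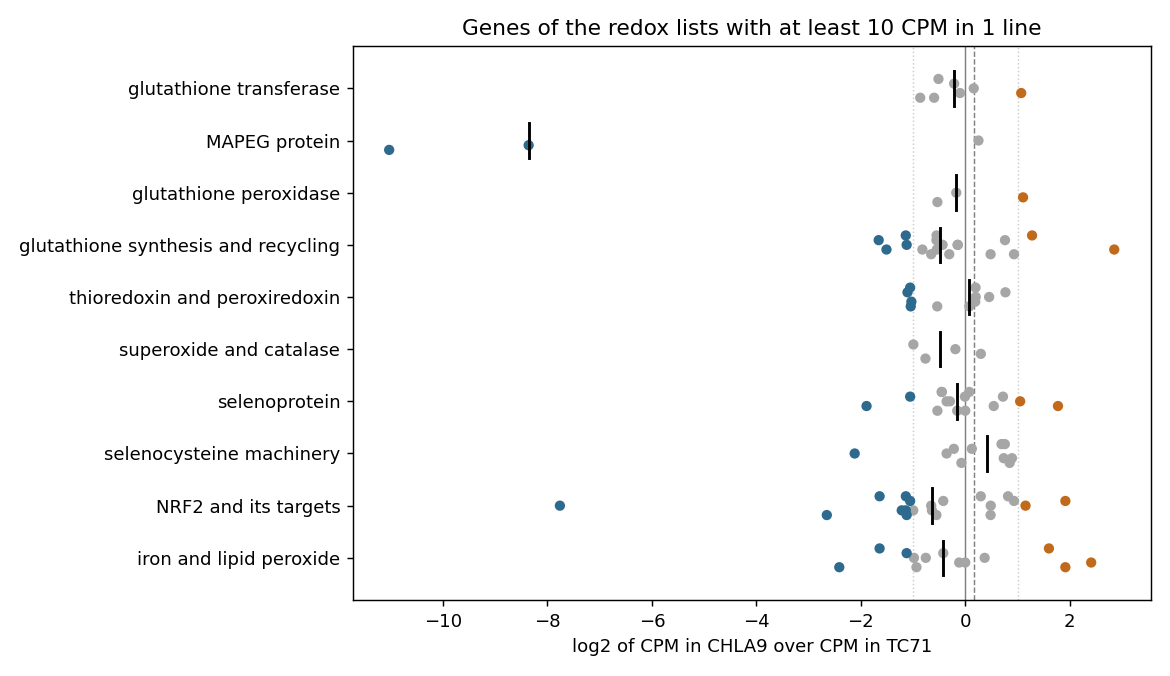
Log2 of CPM in CHLA9 over TC71 for the genes of each redox list with at least 10 CPM in 1 line (points; orange at least 2-fold higher in CHLA9, blue at least 2-fold higher in TC71, grey within 2-fold), with the median of each list (black bar), the 2-fold limits (dotted) and the shift of 0.16 (dashed). MGST1 at -11.03, MGST2 at -8.36 and NQO1 at -7.76 lie apart from the rest, and the list of NRF2 and its targets has 8 genes toward TC71 and 2 toward CHLA9.

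To compare cells, each was thinned to 10000 UMIs, which left out 14 shallower cells in CHLA9 and 59 in TC71. MGST1 was then found in 3 of 4510 CHLA9 cells, or 0.0665% (Clopper-Pearson interval 0.0137 to 0.194), and in 1518 of 1670 TC71 cells, or 90.9% (89.4 to 92.2). At full depth the shares were 0.486% and 98.6%, at the median depths above. A Poisson count with the mean of TC71, 2.61 UMIs per thinned cell, gives 92.7%, just above the interval of the 90.9% observed. The ratio of variance to mean was 1.13, against a median of 1.14 over 519 genes of like mean. The spread of MGST1 in TC71 was thus that of genes of like mean, with somewhat more empty cells than a Poisson count gives. Another seed of thinning gave 0.177% in CHLA9, which is within the counting interval. The part of free RNA in these shares was not tested.

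MGST2 was found in 16.6% of thinned TC71 cells, against 16.6% from its mean, and in 2 CHLA9 cells. MGST3 was found in 94.7% of CHLA9 cells and 90.8% of TC71 cells. GSTP1 was found in 99.6% of CHLA9 cells and in all 1670 of TC71. GSTM1 was found in 1.33% (1.02 to 1.71) and 1.497% (0.971 to 2.20), with no cell above 1 UMI. Among the measured members the ratio of variance to mean was highest for GSTP1 in TC71, at 1.97 against 1.59 for 89 genes of like mean, and next for GPX4 in TC71, at 1.42 against 1.28 for 177. In CHLA9 they were 1.25 against 1.24 and 1.19 against 1.15.

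**Figure D3:**
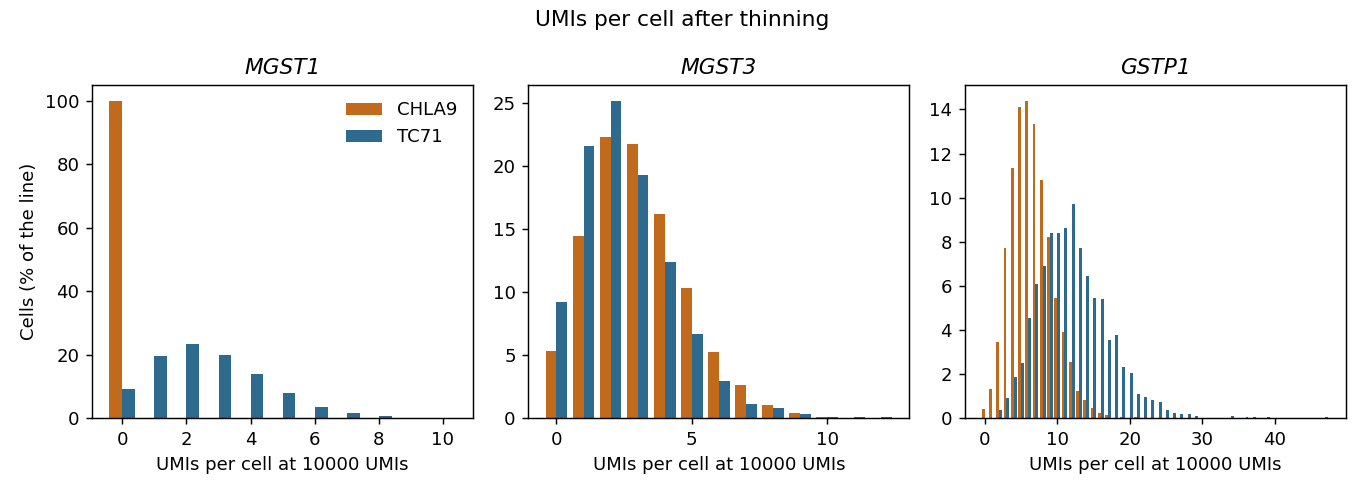
Share of cells of each line by the number of UMIs of MGST1, MGST3 and GSTP1 after thinning to 10000 UMIs (4510 cells of CHLA9 in orange, 1670 of TC71 in blue). MGST1 is at 0 in nearly every CHLA9 cell and has a single peak at 2 UMIs in TC71, MGST3 overlaps in the lines, and GSTP1 has a median of 6 UMIs in CHLA9 and 12 in TC71.

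Rank correlations between members were taken over thinned cells, whose small counts lower them. Among 6 members with at least 20 CPM in CHLA9, the 15 pairs had Spearman's rho between -0.0325 and 0.0600 over 4510 cells. In TC71, 7 members gave 21 pairs over 1670 cells, with rho between -0.0179 and 0.234, and 4 pairs reached 0.1. The highest was GSTP1 with GPX4, at 0.234, followed by MGST1 with GSTP1, at 0.137, MGST3 with GPX4, at 0.110, and MGST3 with GSTO1, at 0.106. MGST1 and MGST3 had a rho of 0.00637 in TC71, which at means of 2.61 and 2.51 UMIs per cell cannot show whether they compensate for each other. All cells of a line share a library, and in TC71 GSTP1 also went with lower mitochondrial percent (rho -0.202) and fewer UMIs per cell (rho -0.161); correlations of this size in sparse counts are given as values and not as findings.

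The genes most like each member across cells were ranked among those with at least 50 CPM, 3443 in CHLA9 and 3147 in TC71. For MGST1 in TC71 they were SRI (rho 0.143), GSTP1 (0.137), CHCHD2 (0.131), PSMB1 (0.124) and RPS15 (0.122). NQO1, chosen after its level was seen, was at 44.6 CPM in TC71, under that minimum. Its rho with MGST1 was -0.000423, and counts this sparse cannot show whether the 2 genes vary together. For GSTP1 in TC71 they were RPS3 (0.346), PRDX1 (0.304), GAPDH (0.299), TUBA1B (0.294) and RPL13 (0.292), and in CHLA9 they included GAPDH (0.169), FTH1 (0.139), RPL7A (0.138) and RPL11 (0.134). For GPX4 in TC71 they included RPS15 (0.294), RPL7A (0.263), RPL32 (0.246) and RPL8 (0.239), and in CHLA9 they were RPL12 (0.137), RPS12 (0.126), GAPDH (0.124), RPLP0 (0.119) and RPS7 (0.118).

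By cell cycle score, CHLA9 had 1031 cells in G1, 1654 in S and 1839 in G2M, and TC71 had 428, 528 and 773. GPX8 stood apart from the other members. It was at 32.8 CPM in G1 cells of CHLA9 (30.9 to 34.8) and 46.8 CPM in G2M cells (45.4 to 48.4), a log2 of G1 over G2M of -0.51 (-0.61 to -0.42). In TC71 it was at 43.4 CPM (39.9 to 47.1) and 51.0 CPM (48.4 to 53.8), a log2 of -0.23 (-0.38 to -0.09). The TC71 difference depended on the scoring. When only genes seen in 10 or more cells entered it, the log2 was -0.17 and the intervals overlapped. With an updated gene list the log2 was -0.21, and with another seed -0.23, and under both GPX8 stayed higher in G2M.

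The remaining members with at least 10 CPM, 5 in CHLA9 and 7 in TC71, were higher in G1 than in G2M, with intervals that did not overlap. Under each of the other scorings tried, the counts were 4 in CHLA9 and 6 in TC71. Over all genes at that level, 25.3% were higher in G1 and 32.3% higher in G2M in CHLA9 by the same rule, and 13.2% and 29.3% in TC71. The differences were small. GSTP1 had 669 CPM in G1 against 625 CPM in G2M for CHLA9, a log2 of 0.10 (0.08 to 0.12), and at 1290.5 CPM and 1135 CPM in TC71, 0.19 (0.16 to 0.21). GPX4 had 0.13 (0.10 to 0.16) in CHLA9 and 0.21 (0.18 to 0.25) in TC71. In CHLA9, however, MGST3, GSTP1, GSTM3 and GPX4 were highest in S cells. There GPX4 was at 445 CPM in S (440 to 451) against 424 CPM in G1 (417 to 431). For MGST3, GSTP1 and GSTM3 the S and G1 intervals overlapped. GSTO1 in CHLA9, and these members in TC71, were highest in G1. MGST1 in TC71 was at 285 CPM in G1, 275 CPM in S and 244 CPM in G2M cells, a log2 of 0.23 (0.17 to 0.28). The share of cells with an MGST1 UMI was not compared between phases.

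**Figure D4:**
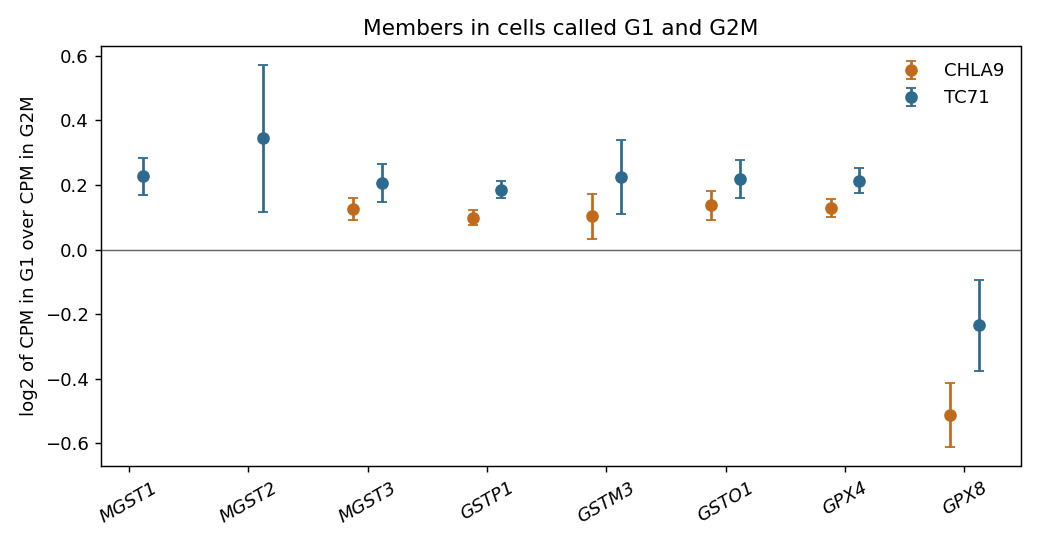
Log2 of CPM in cells scored G1 over cells scored G2M for each member with at least 10 CPM, in CHLA9 (orange) and TC71 (blue), with exact 95% intervals of counting error. GPX8 lies below 0, at -0.51 and -0.23, and the remaining members lie above 0 in both lines where measured.

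Barcodes with many mitochondrial UMIs held the members in other proportions. This comparison was chosen after the values were seen, and no cause of it was tested. Levels were taken per 1000000 non-mitochondrial UMIs, in barcodes with at least 5000 UMIs and over 30% mitochondrial ones, of which CHLA9 had 233 and TC71 had 721, and set against the kept cells. In TC71, 4 of 8 members were at least 2-fold higher there, against 22.9% of all genes, and 1 was at least 2-fold lower, against 9.26%. With a minimum of 10000 UMIs, which left 136 barcodes, 2 were higher and 2 lower. The count thus depended on the minimum, and the reason was not tested. Over the barcodes with at least 5000 UMIs, MGST1 was at 289 in kept cells and 691 in these barcodes, a log2 of 1.26 (1.19 to 1.33). MGST2 had 2.03 (1.82 to 2.24), MGST3 1.08 (1.00 to 1.15) and GPX8 1.57 (1.42 to 1.71).

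The remaining 4 members were lower. GPX4, whose product is found in cytosol, mitochondria and nucleus, was at 662 in kept TC71 cells and 229 in these barcodes, a log2 of -1.53 (-1.64 to -1.42). GSTP1 had -0.99 (-1.06 to -0.93), GSTO1 -0.94 (-1.08 to -0.80) and GSTM3 -0.37 (-0.61 to -0.15). In CHLA9, 0 of 6 members were 2-fold higher, against 22.8% of all genes, and 4 were 2-fold lower, against 16.3%: GPX4 at -2.19, GSTO1 at -1.77, GSTP1 at -1.57 and GSTM3 at -1.25. MGST3, at -0.47 (-0.66 to -0.28), and GPX8, at -0.57 (-1.16 to -0.03), were lower there by less. GPX7, of the reticulum lumen, had 0.96 in TC71 and -1.29 in CHLA9. GSTK1 had 1.30 and 0.33. The median log2 over all genes was 0.12 in TC71 and 0.23 in CHLA9. In CHLA9, a minimum of 10000 UMIs left 41 barcodes, with 0 of the 6 members 2-fold higher and 3 lower.

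**Figure D5:**
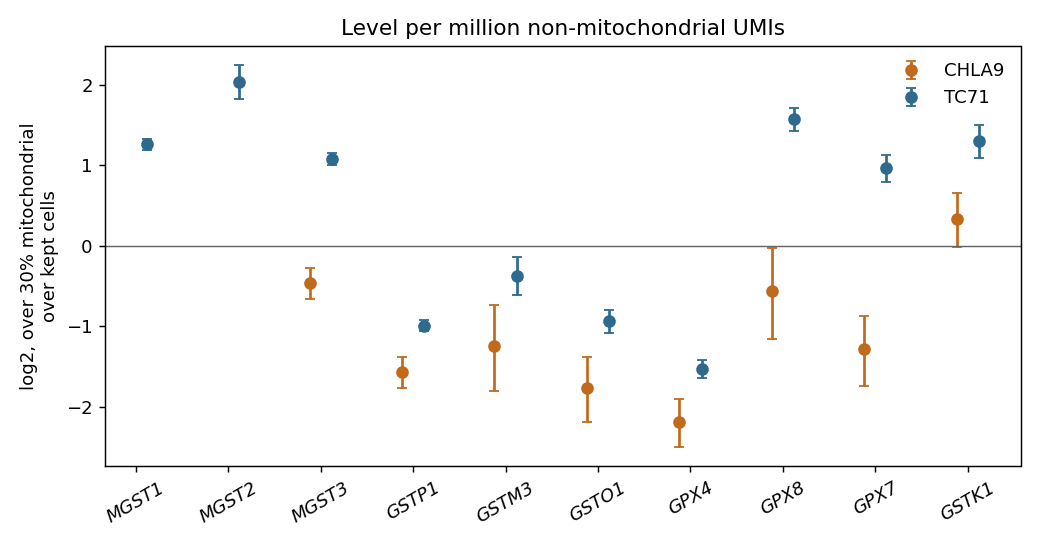
Log2 of the level per 1000000 non-mitochondrial UMIs in barcodes with over 30% mitochondrial UMIs over that in kept cells, for CHLA9 (orange) and TC71 (blue), with exact 95% intervals. The members are followed by GPX7 and GSTK1, and the values run from -1.53 for GPX4 to 2.03 for MGST2 in TC71, and from -2.19 for GPX4 to 0.33 for GSTK1 in CHLA9.

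Positions were taken from GENCODE 44 on GRCh38. MGST1 (ENSG00000008394) is at chr12:16347142-16609259 on the plus strand. Its nearest coding neighbours that do not overlap it, SLC15A5 and RERGL, had no UMI in either line. DERA, 309.8 kb away, was at 48.7 CPM in CHLA9 and 42.4 CPM in TC71. Coding genes that overlap a named gene were left out of the neighbours given here. Over the 20 nearest genes with at least 10 CPM in 1 line, which spanned up to 4893 kb, the median log2 was -0.32, against 0.21 over all genes tested. MGST2 (ENSG00000085871) is at chr4:139665768-139740745 on the plus strand, next to SETD7, at 13.3 CPM in CHLA9 and 41.7 CPM in TC71 with a log2 of -1.64, and further off CLGN was at 3.93 CPM and 23.8 CPM, a log2 of -2.60. Over its 20 nearest genes the median was -0.10. SETD7 and CLGN were thus higher in the same line as MGST2, by less. RAB33B, at -0.18, and SCOC, at -0.59, both nearer than CLGN, lay within 2-fold. Of the 20 nearest genes, 4 were called higher in TC71, against 8.8% of all genes, and 2 in CHLA9, against 16.3%. NQO1, at chr16:69706996-69726668 on the minus strand, had neighbours with a median of -0.50, with NFAT5 at -1.19 and NOB1 at -1.44 beside it.

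GSTP1 (ENSG00000084207) is at chr11:67583742-67586656 on the plus strand, beside NDUFV1, which had a log2 of 0.03. The median over its 20 nearest genes was 0.26. GPX4 (ENSG00000167468) is at chr19:1103982-1106791 on the plus strand, beside POLR2E, which had a log2 of 0.28, with a median of 0.61. Of its 20 nearest genes, 0 were called higher in TC71, against 8.8% of all genes, and 4 in CHLA9, against 16.3%. GPX4 itself was at -0.53. MGST3 (ENSG00000143198), at chr1:165631213-165661796 on the plus strand, had 0.25, near the 0.26 of its 20 nearest genes. GSTM1 (ENSG00000134184) and GSTM3 (ENSG00000134202) lie in the mu class cluster, at chr1:109687814-109709039 on the plus strand and chr1:109733932-109741038 on the minus strand, with medians of -0.21 around each. GSTO1 (ENSG00000148834) is at chr10:104235356-104267459 on the plus strand, 1.41 kb from GSTO2, which was at 0.777 CPM in CHLA9 and 0.685 CPM in TC71. GPX8 (ENSG00000164294) is at chr5:55160167-55167297 on the plus strand. Its nearest coding neighbours that do not overlap it were GZMA, which had no UMI, and MCIDAS, at 0.943 CPM in CHLA9 and 0.908 CPM in TC71.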

How the data were processed

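The authors counted UMIs per gene and barcode against hg38 with Cell Ranger 3.1.0, per the submitters' processing notes, and deposited these counts without normalization. Kept cells were summed per line, phase or barcode class, and levels are UMIs per 1000000 UMIs (CPM) with exact 95% Poisson intervals from scipy 1.17.1. Log2 ratios have exact conditional intervals and shares have Clopper-Pearson ones. For work on single cells, 10000 UMIs were drawn from each without replacement (numpy 2.4.6, seed 1). Phases came from Seurat 5.3.0 in R 4.3.3. Tables were handled with pandas 2.3.3 and plots drawn with matplotlib 3.10.9. The calls and intervals were tested on simulated data.

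The members and the gene lists were chosen with earlier results of these data known. Named genes were drawn from the members and any list gene past 2-fold with at least 10 CPM in 1 line. Genes among the 5 most like MGST1, GSTP1 and GPX4, of those with at least 50 CPM, were also named. GPX1 was listed too, and its level was not analysed here. Further genes were named after their values were seen. Doublets were not called; leaving out the 8% of cells with most UMIs was tried instead. Further samples of the series were not analysed here.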

Additional observations from a re-analysis of the deposited data

Results flagged for a closer look

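Barcodes with fewer than 5000 UMIs, outside the comparisons above, also held UMIs of the members above the limit that a count of 0 allows. TC71 had 5869 such barcodes with a median of 1170 UMIs, and all 9 measured members were above that limit of 0.338 CPM. MGST1 was at 272 CPM (261 to 283), close to the 263 CPM of kept cells, MGST2 at 19.4 CPM, MGST3 at 251 CPM, GSTP1 at 1091 CPM and GPX4 at 543 CPM. GSTO1 was at 228 CPM, GSTM3 at 62.5 CPM, GPX8 at 43.1 CPM and GSTM1 at 1.46 CPM. CHLA9 had 277 such barcodes with a median of 2530 UMIs, where MGST1, MGST2 and GSTM1 had no UMI, with a limit of 4.16 CPM. There MGST3 was at 109.6 CPM, GSTP1 at 186 CPM, GPX4 at 86.0 CPM, GSTO1 at 25.0 CPM, GSTM3 at 18.0 CPM and GPX8 at 11.1 CPM, each below its level in kept cells. Whether these barcodes were small cells, broken cells or free RNA was not tested.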

How the results depend on the processing

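MGST1 and MGST2 kept their direction under every alternative to the filter, weighting, denominator and scaling, with log2 values between -11.19 and -11.03 and between -8.73 and -8.24. No paired analysis was possible because a single library stands for each line. With a minimum of 50 CPM the members past 2-fold fell to 1 and all genes past it to 775, and with no minimum all genes rose to 12270, since fewer or more genes entered. The share of cells with an MGST1 UMI at full depth was 0.486% in CHLA9 and 98.6% in TC71, and after thinning to 5000 UMIs 0.0663% and 71.4%. Pairs of members with a rho of at least 0.1 in TC71 were 1 after thinning to 5000 UMIs, 8 without thinning, and 2 in G1 cells or in G2M cells alone; in CHLA9 there were 2 without thinning. The rho of GSTP1 and GPX4 in TC71 was 0.361 without thinning. With phases scored from genes in at least 10 cells, 0 members were higher in G2M than in G1 in TC71. In barcodes over 30% mitochondrial and with at least 10000 UMIs, chosen after seeing the data, TC71 had 2 members 2-fold higher and 2 lower. The cause was not tested where depth or gene numbers do not show it. Of 90 alternative log2 values of single members between the lines, among them those under both minimum levels, which cannot move, 25 left the counting interval and 0 changed the direction of a called gene. Of 252 alternative values of rho, 3 moved by more than 0.1, and of 42 phase differences 1 left its interval. Depth limits GSTM1 and the traces of MGST1 and MGST2 in CHLA9.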
